A study of Rattus norvegicus with 16 samples.

Results

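The results concern 10 hepatic transporter genes that carry bile salts, sterols, phospholipid, bilirubin conjugates and drugs into and out of the liver cell, measured in livers of rat pups. They were Slc10a1, Slco1b2 and Slco1a4, which take solutes up from blood, Abcb11, Abcc2, Abcb4, Abcg5, Abcg8 and Abcb1a, which export into bile, and Abcc3, which exports back into blood. Members were found as the non-control array probes whose RefSeq accession maps to these symbols. The rule itself uses no measured value, but the symbols were chosen with earlier results of these data known. Each of the 10 genes had 1 probe among the 30367 non-control probes, and 8 of the 10 were among the 12072 genes bright enough to be tested.

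RNA came from livers of male Sprague-Dawley pups at 21 days of age, in 4 groups of 4 arrays, with the RNA of 2 pups pooled for each array. Group C pups stayed with their own dams, which were given corn oil. Group M pups stayed with their own dams, which were given organochlorine pesticides, polychlorinated biphenyls and methylmercury together in corn oil, at 1 mg per kg per day. Groups CC and MM were exchanged between dams that had given birth simultaneously, with both the biological and the foster dam given corn oil only (CC) or the mixture (MM). The full developmental exposure ran from gestation day 0 to postnatal day 20, so the pups received the chemicals through their dams. Litters were not named, and p-values measure the spread between pools of pups, which may share a litter. On every array Cy5 carried the pup liver RNA, and Cy3 carried a universal rat reference RNA made from 14 rat cell lines. Values are log2 ratios of Cy5 over Cy3 unless a channel is named, and the ratio of 1 gene says nothing of its level against another gene.

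Hepatocytes are polarised cells. Sodium-dependent and sodium-independent carriers on the blood side take up bile salts and organic anions, and ATP-driven pumps on the canalicular side move bile salts, phosphatidylcholine, cholesterol and glucuronide or glutathione conjugates into bile. When canalicular export fails, pumps of the blood side can return bile acids and conjugates to the circulation. Bile acid, oxysterol and xenobiotic receptors of the nucleus are known to set the transcription of many of these carriers.

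The control arrays of C and CC shared slide 1 and the mixture arrays of M and MM shared slide 2. Mixture and slide therefore cannot be told apart, while both comparisons of cross-fostering lie within a slide. The reference channel, which holds no pup RNA, differed between the slides for 76.1% of the 12072 genes (limma, Benjamini-Hochberg adjusted p below 0.05, the threshold used for every call). Each mixture comparison is therefore given below in the ratio and in both channels. Arrays stood in row 1 or row 2 of their slide, and each group had 2 arrays in either row. Median Cy5 intensity per array was 87 to 102 over a background of 67 to 73. All 8 hepatocyte markers were above background on all 16 arrays. Skeletal muscle markers stood apart on CC 1 and CC 2, with summed Cy5 signals of 18700 and 17000 against 939 to 1230 on the other 14 arrays. Exocrine pancreas markers summed to 20300 on CC 2, 7120 on CC 1, 5000 on MM 1 and 2580 on M 6, and to 604 to 1040 elsewhere. Of the 6 cholangiocyte markers with a probe, Cftr and Slc10a2 were not above background on any array, and the summed signal was 914 to 1050 on 15 arrays and 1470 on CC 1. Of the 4 cholangiocyte markers tested, 1 was called in each mixture comparison: Epcam was higher by 0.42 and 0.64, while Krt19 was at -0.0066 and -0.34, Spp1 at -0.022 and -0.28 and Krt7 at 0.016 and 0.023. The stellate marker Reln (1 of 5 tested) was higher by 0.38 and 0.53. The other stellate markers were not called and lay below 0 in MM versus CC. Des was at 0.018 and -0.65, Dcn at 0.26 and -0.3, Lrat at 0.017 and -0.047, and Col1a1 at 0.13 and -0.021. The Kupffer cell marker Marco (1 of 6) was at -0.61 without a call in M versus C and at -0.93 with one in MM versus CC. The medians of the Kupffer cell markers were -0.14 and -0.24. Over all genes tested, 20.4% were called in M versus C and 20.0% in MM versus CC. The part of these markers in the results below was not tested. For Slco1b2, Slco1a4, Abcc2 and Abcg5 the MM versus CC difference is also given without CC 1 and CC 2. The 5 genes chosen as sentinels of xenobiotic induction (Cyp1a1, Cyp2b2, Cyp3a23-3a1, Nqo1 and Ugt1a6) were all higher in both mixture comparisons, in the ratio and in Cy5 alone. Cyp1a1, which the dioxin receptor Ahr induces, differed by 5.29 in M versus C and by 5.33 in MM versus CC.

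Abcc3 reached the test only through M and MM, since its Cy5 signal was above background on no C or CC array, so it is described apart and left out of the counts here. The other 7 tested transporters were above background on all 16 arrays. In the pups kept with their own dams, 2 of these 7 differed between M and C, where 20.4% of all genes tested were called. Abcc2 was higher in M (8.19% of all genes were called higher) and Abcg5 was lower (12.2% were called lower). In the cross-fostered pups both genes were called with the same signs in MM versus CC, where 20.0% of all genes were called (7.83% higher and 12.2% lower). Both comparisons share the slide contrast, and 13.2% of all genes had a call of like sign in each. In Cy5 alone, where 3.26% of genes were called in M versus C and 2.86% in MM versus CC, Abcc2 and Abcg5 were called in both. Of all MM versus CC calls 39.1% were higher, and this was 75.4% in Cy5 alone, 52% in the deposited series table, 50.2% with quantile normalized ratios and 28.8% by the scanner software's log ratio. The majority direction over all genes thus turned with the measure. Of all M versus C calls 40.2% were higher, and 65.6% in Cy5 alone. The directions of Abcc2 and Abcg5 were the same under each of these.

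**Figure D1:**
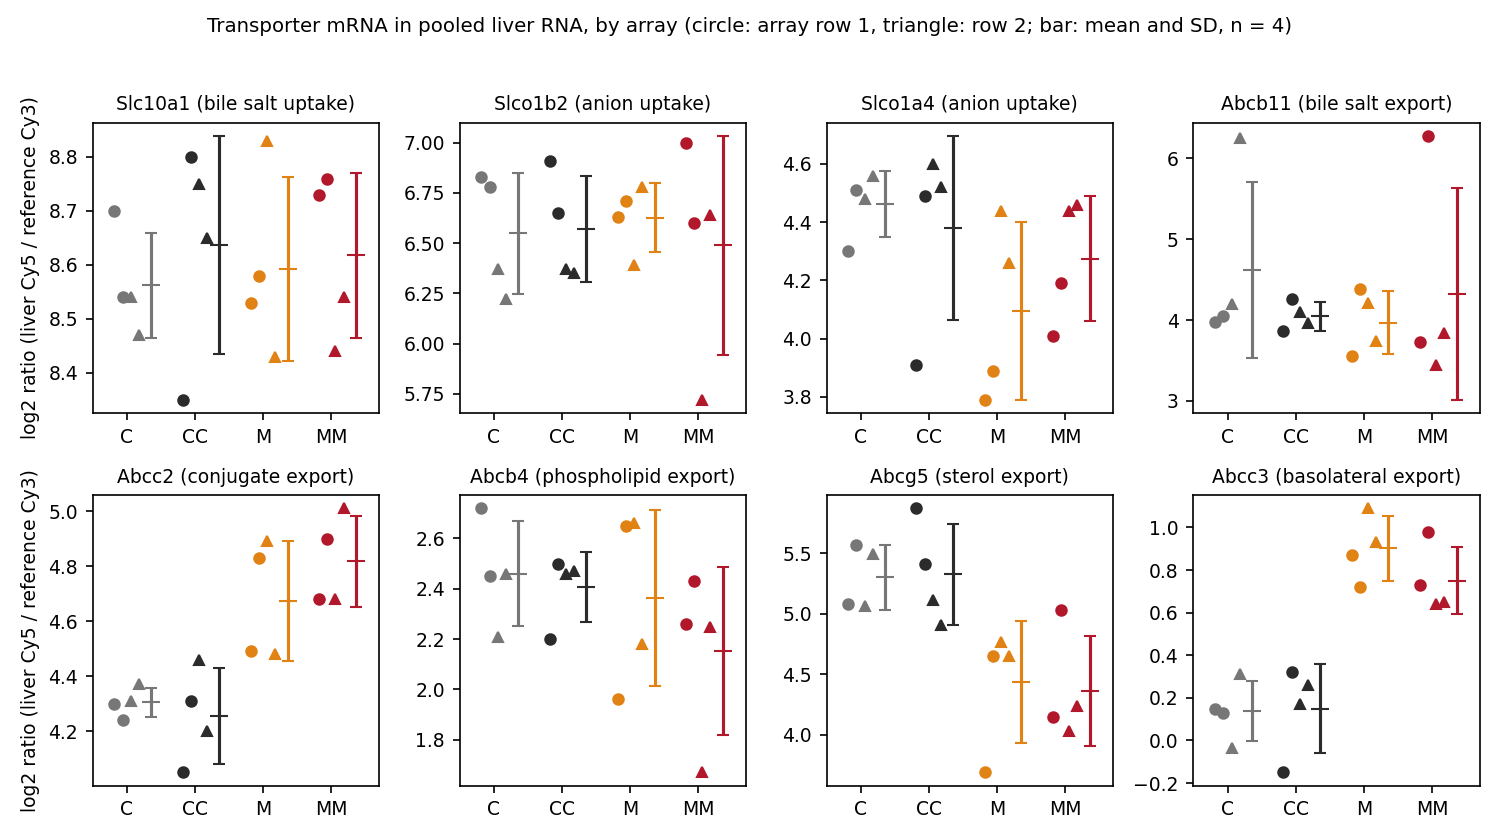
Log2 ratio of liver (Cy5) over reference (Cy3) on each of the 16 arrays for the 8 tested transporters, by group, with the group mean and SD (n = 4 arrays). The Abcc2 and Abcc3 arrays of M and MM all sit above those of C and CC, Abcg5 sits lower in M and MM with MM 2 at 5.03 among the controls, and Abcb11 is near 4 everywhere except on C 12 and MM 2. The filter kept Abcc3 only for its signal in M and MM.

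Slc10a1 encodes NTCP, the sodium-dependent carrier that takes conjugated bile salts up from portal blood. Its ratio was 8.7, 8.54, 8.54 and 8.47 in C and 8.53, 8.58, 8.83 and 8.43 in M, and the groups overlapped throughout. In CC it was 8.35, 8.8, 8.75 and 8.65, and in MM 8.73, 8.76, 8.44 and 8.54, again with full overlap. The difference was 0.03 ± 0.11 (SE) in M versus C, with a 95% confidence interval from -0.2 to 0.26 (limma adjusted p = 0.88). In MM versus CC it was -0.021, with an interval from -0.25 to 0.21. These intervals allow changes of at most 1.2-fold in either direction. Cy5 alone gave -0.1 and -0.14 without a call, and the reference gave -0.13 and -0.12, both called. The reference was faint for this gene and was above background on 7 of 16 arrays, whereas Cy5 intensity was 7230 to 12800 over a background of 66.3 to 73.6. Its 10 spots per array had a median coefficient of variation of 11.9% in Cy5.

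The 250 bases before the start of Slc10a1, the member with the narrowest interval around no change, are shown for comparison with those of the transporters that differed. They were taken from RefSeq's promoters of the GRCr8 assembly, which lists 8 of the 10 genes and not Abcb11 or Abcc3. The segment is chr6:106357945-106358194 on the minus strand, and capitals mark matches on either strand to AGGTCA, the hexamer that many nuclear receptors bind.
Slc10a1: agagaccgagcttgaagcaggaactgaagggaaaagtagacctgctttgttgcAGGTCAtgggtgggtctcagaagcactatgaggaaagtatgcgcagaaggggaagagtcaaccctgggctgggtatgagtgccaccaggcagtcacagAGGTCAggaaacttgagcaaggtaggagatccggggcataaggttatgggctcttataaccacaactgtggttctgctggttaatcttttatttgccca
The matches lie at -197 and -99 from the annotated start. AGGTCA on either strand is found in 14.1% of all 33469 RefSeq promoter segments of that length and in 3 of the 8 members listed, Slc10a1, Slco1b2 and Abcc2.

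Slco1b2 encodes the liver's main sodium-independent anion carrier of the OATP family, which takes up bilirubin, statins and unconjugated bile acids. Its ratio was 6.83, 6.78, 6.37 and 6.22 in C and 6.63, 6.71, 6.39 and 6.78 in M. In CC it was 6.91, 6.65, 6.37 and 6.35, and in MM 7, 6.6, 5.72 and 6.64, so all groups overlapped. The difference was 0.081 ± 0.22 (SE, adjusted p = 0.833) in M versus C and -0.079 (adjusted p = 0.841) in MM versus CC. Both channels were higher on slide 2. Cy5 differed by 0.36 in both comparisons without a call, and Cy3 by 0.28 and 0.44 with a call. The raw reference intensity was 37 to 53.5 on slide 1 and 68 to 84 on slide 2, over a background of 18 to 28, and the probe had 1 spot per array. With the scanner software's own log ratio, the same comparisons gave -1.48 (adjusted p = 0.00014) and -1.56 (adjusted p = 0.000104). The sign in M versus C thus differed between these ways of making the ratio. Without CC 1 and CC 2 the MM versus CC difference was 0.13 (limma adjusted p = 0.799).

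Slco1a4, another OATP carrier of the blood side, transports bile acids, cardiac glycosides and steroid conjugates. Its ratio was 4.3, 4.51, 4.48 and 4.56 in C and 3.79, 3.89, 4.44 and 4.26 in M, with M 7 within the C range and M 5 and M 6 well below it. In CC it was 3.91, 4.49, 4.6 and 4.52, and in MM 4.01, 4.19, 4.44 and 4.46. The difference was -0.37 ± 0.16 (SE) in M versus C (limma adjusted p = 0.124) and -0.11 ± 0.16 in MM versus CC (adjusted p = 0.694), neither of which passed. Cy5 alone gave -0.36 and -0.38, also without a call. With array row as a block the M versus C difference passed, at -0.37 (adjusted p = 0.0251), as it did by the scanner software's log ratio at -0.36 (adjusted p = 0.00356). These fits also called more of all 12072 genes, 3324 and 4358 against 2459 in the main fit. Neither is thus particular to Slco1a4, whose M versus C difference is also given by row. Within row 1 it was -0.57 and within row 2 -0.16, neither called. Without CC 1 and CC 2 the MM versus CC difference was -0.29 (adjusted p = 0.304).

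Slco1a4 and Slco1b2 are neighbours in the GRCr8 annotation, with 0 protein-coding genes between them, and their ratios moved in opposite directions between the array rows. Row 2 minus row 1 was 0.24 on slide 1 and 0.43 on slide 2 for Slco1a4, and -0.46 and -0.35 for Slco1b2. Slco1b2 was at 6.65 to 6.91 in row 1 and 6.22 to 6.37 in row 2 of slide 1, and at 6.6 to 7 and 5.72 to 6.78 on slide 2. Slco1a4 was at 3.91 to 4.51 in row 1 and 4.48 to 4.6 in row 2 of slide 1, and at 3.79 to 4.19 and 4.26 to 4.46 on slide 2. The rows of each gene thus overlapped on 1 of the slides. The share of all genes whose rows separate was not counted, so the pattern is not shown to be particular to these neighbours. After subtraction of each slide's mean the correlation between both genes was -0.592 over 16 arrays, which share the row, the slide and the reference. Each row held the same number of arrays of each group, so the row does not separate the groups.

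Abcb11 encodes BSEP, the pump that drives bile salts across the canalicular membrane and so generates bile flow. Its ratio was 3.98, 4.05, 4.2 and 6.25 in C, 3.86, 4.26, 4.1 and 3.96 in CC, 3.55, 4.38, 4.21 and 3.74 in M, and 3.73, 6.28, 3.45 and 3.84 in MM. A control pool, C 12, and a mixture pool, MM 2, thus stood far above the other 14 pools, which lay between 3.45 and 4.38. C 12 was 4.5-fold and MM 2 6.09-fold above the mean of the other arrays of its group. Both spots of the probe showed it: raw Cy5 intensity was 1970 and 2030 on C 12 and 1880 and 2080 on MM 2, against 262 to 643 on the other arrays. The reference signal was 37 to 51 and not above background on any array.

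With those arrays in, Abcb11 differed by -0.65 ± 0.54 (SE) in M versus C (limma adjusted p = 0.435) and by 0.28 ± 0.54 in MM versus CC (adjusted p = 0.762). Without C 12 and MM 2, a choice made after the data were seen, the differences were -0.11 ± 0.18 (adjusted p = 0.732) and -0.37 ± 0.18 (adjusted p = 0.171), so the sign in MM versus CC rests on MM 2. Abcb11 was called under none of the alternatives run. Of the 7887 tested genes with an established symbol, the 3 whose ratio followed Abcb11 most closely were Hamp (Pearson r = 0.928), Rp9 (0.849) and Cage1 (0.8), over 16 arrays with each slide's mean subtracted. Abcb11 varied mostly through C 12 and MM 2, so these arrays weigh most in each r. On them Rp9 lay only 0.18 and 0.17 above its slide means, and Cage1 0.14 and 0.39. Hamp encodes hepcidin, the liver hormone that restrains iron export into blood. Its ratio was 2.3 on C 12 and 4.71 on MM 2, and -1.22 to 0.81 on the other arrays. Hamp was picked for its likeness to Abcb11 over these same arrays, so its high values on C 12 and MM 2 are no separate result. In Cy5 Hamp was above background on 12 of the 16 arrays and Cage1 on 8.

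**Figure D2:**
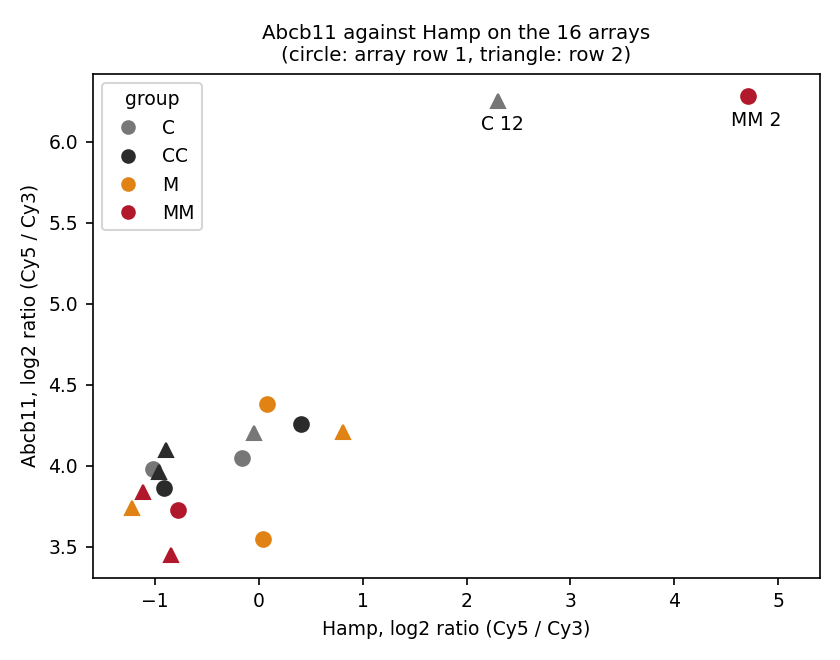
Log2 ratio of Abcb11 against log2 ratio of Hamp, 1 point per array, with colour for the group and shape for the array row. C 12 (2.3 for Hamp, 6.25 for Abcb11) and MM 2 (4.71 and 6.28) stand apart from the other 14 arrays. Hamp was picked for its likeness to Abcb11 over these same arrays.

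Abcc2 encodes MRP2, the canalicular pump for bilirubin glucuronides, glutathione and sulphate conjugates and many drugs. Its ratio was 4.3, 4.24, 4.31 and 4.37 in C and 4.49, 4.83, 4.89 and 4.48 in M. It was 4.05, 4.31, 4.46 and 4.2 in CC and 4.68, 4.9, 4.68 and 5.01 in MM. Every mixture array thus lay above every control array, in both comparisons. Of the 7 transporters above background throughout, Abcc2 and Abcg5 did not overlap between M and C (25.1% of all genes did not), and Abcc2 did not between MM and CC (21.9%). Abcc2 in M exceeded that in C 1.29-fold (0.37 ± 0.11 SE, limma adjusted p = 0.0289) and in MM exceeded that in CC 1.48-fold (0.57 ± 0.11, adjusted p = 0.00239). In Cy5 alone it was higher by 0.5 (adjusted p = 0.0206) and 0.74 (adjusted p = 0.00169). Its reference signal was also higher on slide 2, by 0.14 and 0.18 in the same comparisons. Raw Cy5 intensity was 1470 to 1940 in the controls and 1700 to 3080 in the mixture groups.

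The Abcc2 difference in M versus C was close to the threshold. It stayed between 0.29 and 0.43 when each array was left out in turn, but passed in 3 of 8 such fits: without C 9, C 10, C 11, M 6 or M 7 the adjusted p was 0.0588, 0.0744, 0.0575, 0.0896 and 0.0878. By the scanner software's log ratio it was 0.23 (adjusted p = 0.0886). In MM versus CC it passed in 8 of 8, from 0.5 to 0.63, and was 0.49 without CC 1 and CC 2 (adjusted p = 0.0315). Within the array rows the M versus C difference was 0.39 and 0.35, and the MM versus CC difference was 0.61 and 0.52, none of them called with 2 arrays a group.

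The segment before the start of Abcc2, a transporter that differed in both comparisons, is chr1:252613625-252613874 on the plus strand (RefSeq, GRCr8). Capitals mark AGGTCA or its complement read on this strand.
Abcc2: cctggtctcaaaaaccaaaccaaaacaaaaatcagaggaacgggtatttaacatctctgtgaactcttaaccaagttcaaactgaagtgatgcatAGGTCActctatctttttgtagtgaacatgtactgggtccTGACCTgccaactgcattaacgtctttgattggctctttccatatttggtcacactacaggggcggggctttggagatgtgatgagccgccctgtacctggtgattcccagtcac
The matches lie at -155 and -115. GCGTG, the core that the aryl hydrocarbon receptor binds, and TGACNNNGC, the core of the antioxidant element bound by Nrf2, have no match in it. The first is found in 25.9% of all segments and in 1 of the 8 members, Abcb4, at -62 and -15. At -15 it forms part of the longer TNGCGTG, which 4.09% of all segments hold.

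Abcb4 encodes the floppase that supplies phosphatidylcholine to bile. Its ratio was 2.72, 2.45, 2.21 and 2.46 in C, 1.96, 2.65, 2.66 and 2.18 in M, 2.2, 2.5, 2.46 and 2.47 in CC, and 2.26, 2.43, 1.67 and 2.25 in MM. All groups overlapped, and the lowest array was MM 3. The differences were -0.1 ± 0.17 (SE, limma adjusted p = 0.743) in M versus C and -0.26 ± 0.17 (adjusted p = 0.328) in MM versus CC. Cy5 alone gave -0.049 and -0.25, and Cy3 gave 0.046 and 0.0045, none of them called. The 95% confidence intervals ran from -0.46 to 0.27 and from -0.62 to 0.11.

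Abcg5 and Abcg8 encode both subunits of a canalicular pump for cholesterol and plant sterols, and each needs the other to leave the endoplasmic reticulum. The genes lie head to head. The RefSeq (GRCr8) stretch between their starts, shown because both genes share it, is the 205 bases of chr6:15717731-15717935 on the plus strand, with Abcg8 to the left and Abcg5 to the right. Capitals mark a match to TGACNNNGC.
Abcg5 and Abcg8: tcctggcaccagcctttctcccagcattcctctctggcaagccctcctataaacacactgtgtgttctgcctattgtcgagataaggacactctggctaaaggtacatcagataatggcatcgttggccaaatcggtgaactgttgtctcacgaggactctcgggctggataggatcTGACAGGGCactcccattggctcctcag
The match lies at -28 from the start of Abcg5 and, on the other strand, at -186 from that of Abcg8. TGACNNNGC is found in 10.1% of all segments and in these 2 of the 8 members. TCAAGGTCA, the site of the bile acid regulator Nr5a2, contains AGGTCA and is found in 0.388% of all segments and in 0 members. An exact liver X receptor element (a direct repeat of AGGTCA with 4 bases between) was found in 0 members and in 0.00299% of all segments. An exact farnesoid X receptor element (the inverted repeat of AGGTCA with 1 base between) was found in 0 members and in 0.0269%. Exact matches to these motifs, TCAAGGTCA included, are so rare that 0 among 8 members says nothing of such sites in these genes.

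Abcg5 had a ratio of 5.08, 5.57, 5.06 and 5.49 in C and 3.69, 4.65, 4.77 and 4.65 in M, so every M array lay below every C array. It was 5.87, 5.41, 5.11 and 4.91 in CC and 4.15, 5.03, 4.03 and 4.24 in MM. There MM 2 lay above CC 4, while the other 3 MM arrays lay below all CC arrays. Abcg5 was lower in M by 1.81-fold (-0.86 ± 0.26 SE, limma adjusted p = 0.0288) and lower in MM by 1.95-fold (-0.96 ± 0.26, adjusted p = 0.0168). Cy5 alone gave -0.93 (adjusted p = 0.037) and -1 (adjusted p = 0.0257). The reference hardly moved, at -0.067 and -0.034 (neither called), and was above background on 2 of 16 arrays. Raw Cy5 intensity was 815 to 1680 in the controls and 348 to 828 in the mixture groups. In whole liver RNA, fewer cells of a type and less RNA per cell cannot be told apart.

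Single arrays carried the Abcg5 calls across the threshold. In M versus C the difference was -0.77 without C 10 (adjusted p = 0.0819), -0.8 without C 12 (adjusted p = 0.071) and -0.61 without M 5 (adjusted p = 0.0904). In MM versus CC it was -0.78 without CC 1 (adjusted p = 0.0515) and -0.65 without CC 1 and CC 2 (adjusted p = 0.18), and by the scanner software's log ratio -0.49 (adjusted p = 0.195). CC 1, the array with the highest Abcg5 ratio, is also the array with the highest muscle, cholangiocyte and adipocyte marker signals, whose part in the result was not tested beyond leaving it out. Within rows 1 and 2 the differences were -1.15 and -0.57 in M versus C and -1.05 and -0.87 in MM versus CC. The direction was the same in all of these fits. Without C 10 neither Abcc2 nor Abcg5 was called in M versus C.

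Abcg8, the partner of Abcg5, was not measured by its probe. Its Cy5 intensity was 66.8 to 82 over a background of 65.5 to 73.5, and it was not well above background on any of the 16 arrays in either channel. The fall of Abcg5 therefore has no counterpart reading for the other subunit of the pump. Abcb1a, which encodes a drug-exporting P-glycoprotein of the canalicular membrane, was at 65.2 to 79 over 68.5 to 76.2 and likewise not above background on any array. Fitted without the filter on dim probes, both genes gave differences no larger than 0.06, which carry no information on their expression.

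Abcc3 encodes MRP3, the pump of the blood side that returns conjugates and bile acids from hepatocytes to the circulation. Its ratio was 0.15, 0.13, -0.033 and 0.31 in C and 0.87, 0.72, 1.09 and 0.93 in M. In CC it was -0.15, 0.32, 0.17 and 0.26, and in MM 0.73, 0.98, 0.64 and 0.65. The mixture arrays lay above the control arrays without overlap in both comparisons, where 25.1% and 21.9% of all genes did not overlap. The filter kept Abcc3 for its signal in M and MM, so this separation is no separate result. Raw Cy5 intensity was 78.2 to 96 in C and CC, where it was not well above background, and 98.5 to 125 in M and MM, over a background of 68 to 77. Since the controls were not above background, the Cy5 difference is given with a floor under the control signal. The floor on each array was the lowest signal above background of any probe, and the higher of floor and control signal was used. Between group means the floored difference was 1.4-fold in M and, in the cross-fostered pups, 1.24-fold in MM, close to the measured 1.41-fold and 1.28-fold. Abcc3 was not above background at a Cy5 signal (log2) as high as 6.64, on CC 2. A floor set by other probes is therefore not its own limit, and the floored difference is no firm bound. The floored difference also leaves out the spread between arrays, and Cy5 alone was not called in MM versus CC (limma adjusted p = 0.0784). The measured mean Cy5 signal (log2) was 6.95 in M and 6.46 in C, and 6.82 in MM and 6.47 in CC. The fit gave log2 ratio differences of 0.76 (limma adjusted p = 0.000269) and 0.6 (adjusted p = 0.00188). These are taken against control signals at background, in a gene that the filter kept for its signal in M and MM, so they are a description and no estimate of size.

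The reference channel supplied part of that ratio. Cy3 of Abcc3 was lower on slide 2 by 0.27 in M versus C and by 0.25 in MM versus CC, both called, with a raw median of 66.5 on slide 1 and 57 on slide 2. Cy5 alone was higher by 0.5 (adjusted p = 0.013) in M versus C and by 0.35 (adjusted p = 0.0784, not called) in MM versus CC. The size moved with the background treatment. A normexp offset of 16 gave 1.21 and 1, and the scanner software's log ratio gave 2.7 and 1.84. Neither these values nor fits with arrays left out bear on its level in the controls, where it was not well above background.

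**Figure D3:**
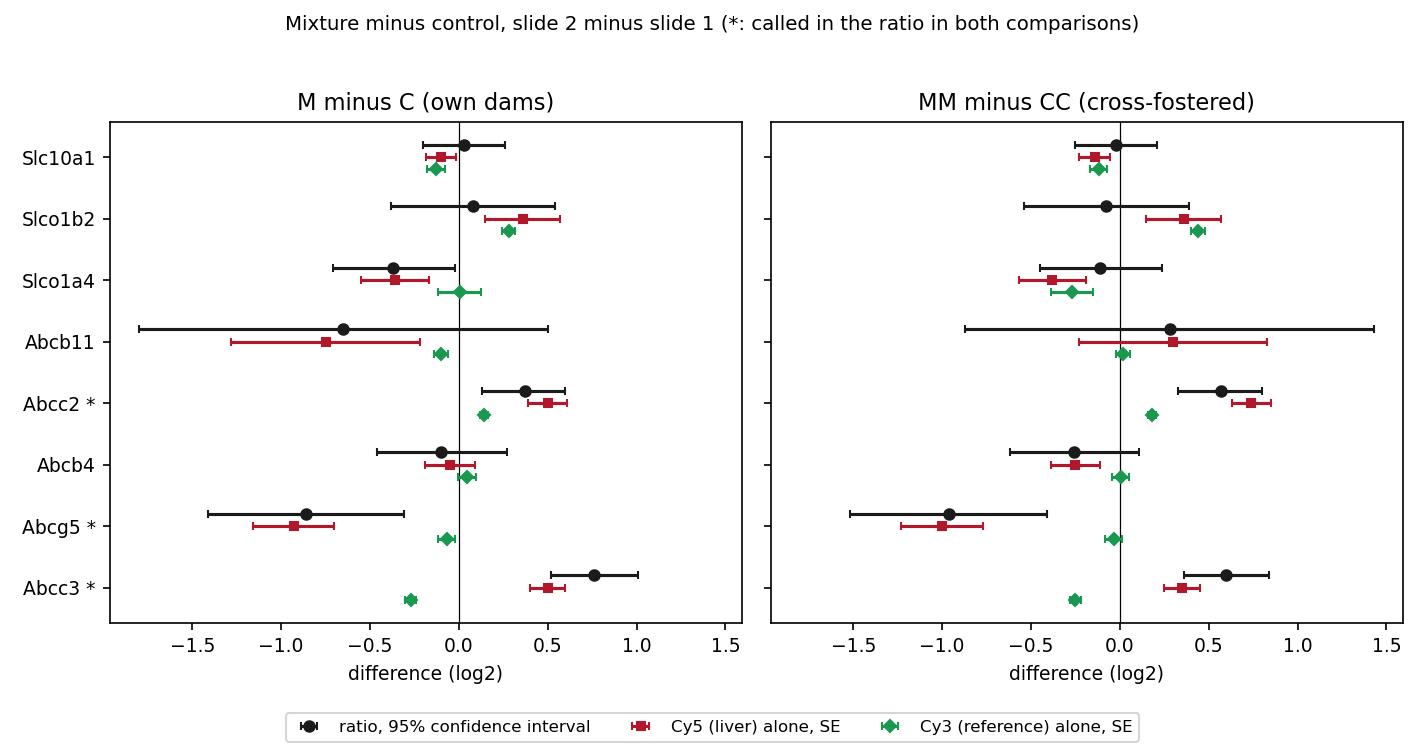
Difference between mixture and control for the 8 tested transporters, in pups with their own dams (left) and in cross-fostered pups (right), in log2 units. Black points are the ratio with its 95% confidence interval, red squares Cy5 alone and green diamonds Cy3 alone, both with SE. For Abcg5 the red squares lie at -0.93 and -1 and the green diamonds near 0, whereas for Abcc3 the green diamonds lie at -0.27 and -0.25, opposite to the red squares. Abcc3 was not above background in C and CC, so its points describe a difference from a limit.

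**Figure D4:**
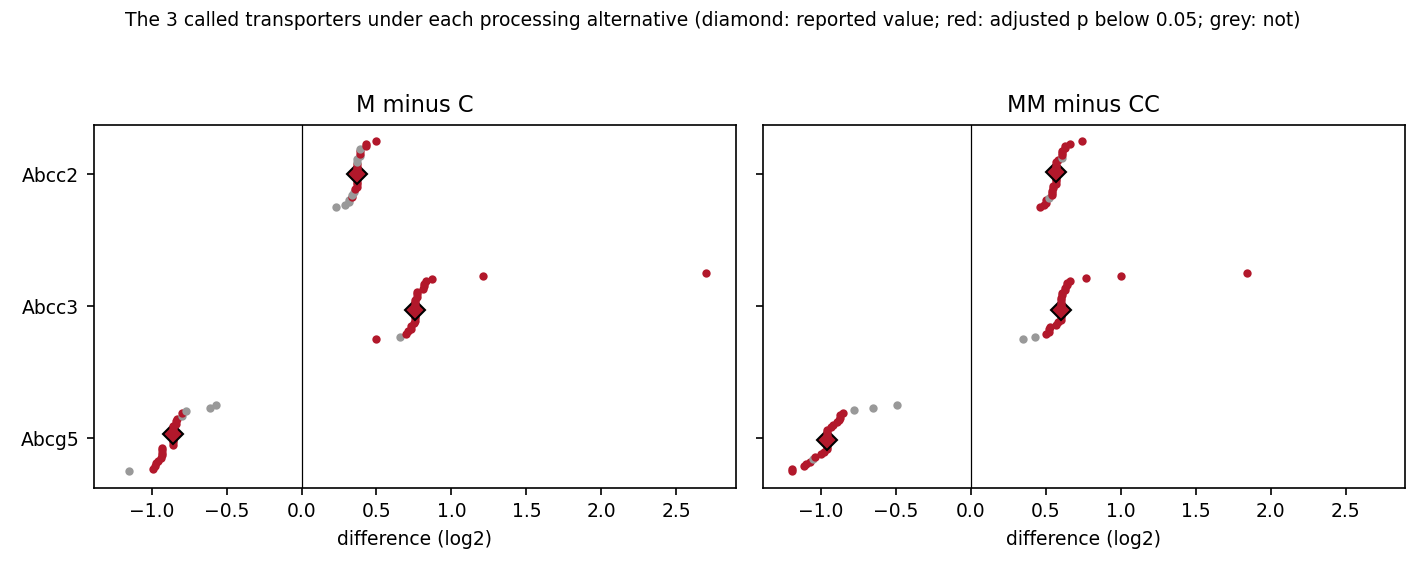
Log2 difference of Abcc2, Abcc3 and Abcg5 in M versus C (left) and MM versus CC (right) under each processing alternative and with arrays left out, with the reported value as a diamond and red for an adjusted p below 0.05. No point crosses 0. Those of Abcc3 are differences from control signals at background, and its points far to the right (2.7 and 1.84) are those of the scanner software's log ratio.

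Cross-fostering was compared within each slide, where the slide does not enter. None of the 8 tested transporters was called in CC versus C, in MM versus M or in the interaction, which asks whether the mixture difference depends on fostering. None had an unadjusted p below 0.05 in these comparisons. Over all 12072 genes the count of calls by limma was also 0 (0%), with 336, 275 and 349 genes at an unadjusted p below 0.05. For CC versus C the differences were 0.075 for Slc10a1, 0.024 for Slco1b2, -0.083 for Slco1a4, -0.049 for Abcc2, -0.051 for Abcb4 and 0.026 for Abcg5. For Abcc3 both groups were at background, so its value says nothing of a change. The 95% confidence interval of Abcc2 ran from -0.29 to 0.19 and that of Abcg5 from -0.53 to 0.58, so a change of the size seen with the mixture lay outside both. For MM versus M the intervals were -0.088 to 0.39 for Abcc2, -0.63 to 0.48 for Abcg5 and -0.4 to 0.089 for Abcc3. That of Abcc2 includes a change as large as the 0.37 of M versus C, and that of Abcg5 does not include its -0.86. Abcb11 had the widest interval in each, from -1.72 to 0.58 and from -0.79 to 1.51, with C 12 and MM 2 included.

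**Figure D5:**
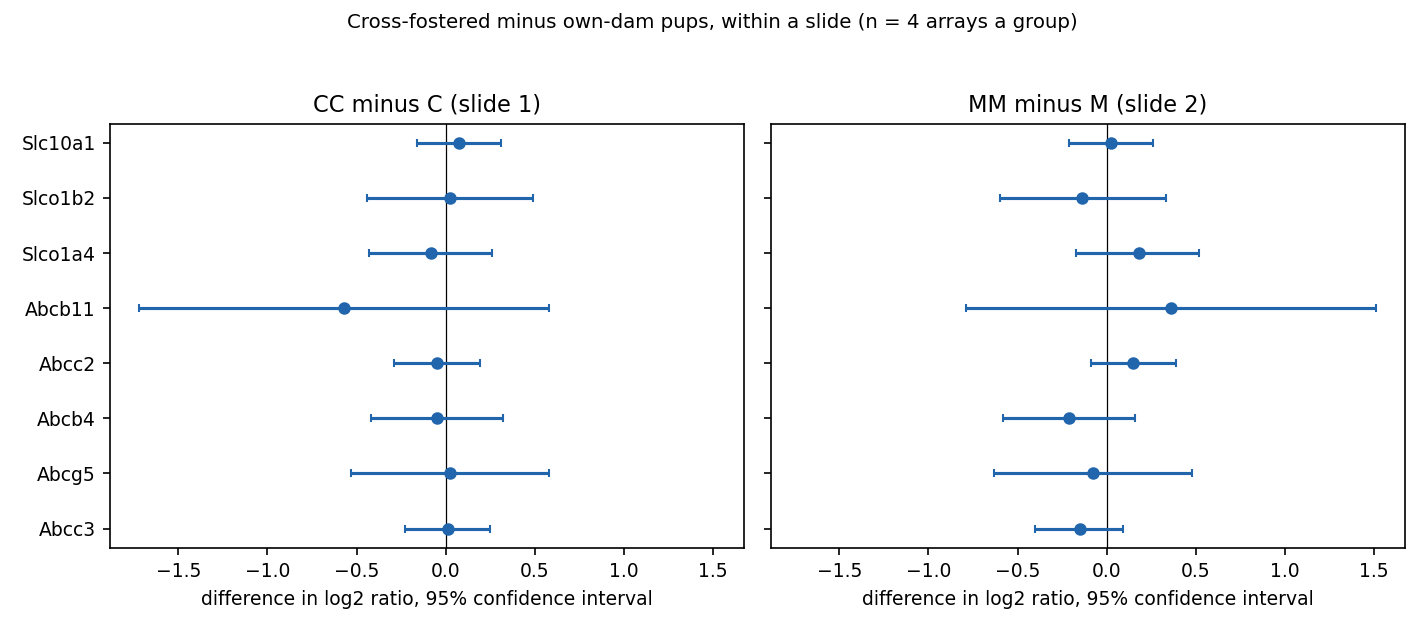
Difference in log2 ratio between cross-fostered and own-dam pups for the 8 tested transporters, without the mixture (CC minus C, left) and with it (MM minus M, right), with 95% confidence intervals. Every interval includes 0, and that of Abcb11 is the widest. Abcc3 was at background in both groups of the left panel.

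The interaction was 0.2 ± 0.16 (SE) for Abcc2 and -0.1 ± 0.37 for Abcg5, with limma adjusted p = 1 for each, and is not given for Abcc3, whose controls were at background. The larger Abcc2 value in MM versus CC than in M versus C was therefore within the spread between arrays.

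Related transporters were read from lists of other carriers of the same membranes. The counts of every list below stand beside the 20.4% of all genes called in M versus C and the 20.0% called in MM versus CC. Among 8 tested uptake carriers of the blood side, which include Slco1a1 and Slco2b1, 0 were called in the ratio in either mixture comparison, with median differences of -0.044 and -0.024. Slc22a8, an organic anion carrier, was at -0.37 and -0.21 in the ratio without a call and at -0.41 and -0.48 (adjusted p = 0.0439) in Cy5 alone, and Slco2a1, the prostaglandin carrier, at 0.27 and -0.0029.

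Among 4 tested exporters of the blood side, 0 were called. Abcc4, a pump for cyclic nucleotides and bile acids known to rise in cholestasis, was at 0.15 and 0.12, Abcc1 at -0.17 and -0.18, and Abcc5 at -0.27 and -0.18. In Cy5 alone Abcc4 was at 0.4 and 0.39, Abcc1 at 0.1 and 0.13, and Abcc5 at -0.3 and -0.23, none of them called. Among 5 tested canalicular transporters, 0 were higher and 1 was lower in each mixture comparison. Abcg2, the pump for sulphated conjugates and urate, was lower in MM than in CC by -0.74 ± 0.14 (SE, adjusted p = 0.00165), also in Cy5 alone (-0.6, adjusted p = 0.0212), and was at -0.35 (adjusted p = 0.0824) in M versus C. Atp7b, the copper exporter, was lower in M than in C at -0.42 (adjusted p = 0.0451) but not called in Cy5 alone (-0.32). Atp8b1, the flippase that protects the canalicular membrane, was at -0.27 and -0.039.

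Regulators and enzymes of the same pathways are given beside the 20.4% and 20.0% of all genes called. Of 15 tested receptors and factors known to govern hepatic transporters, 1 was higher (Nr1h2, 0.26, adjusted p = 0.0389) and 1 lower (Foxa2, -0.68, adjusted p = 0.0138) in M versus C, and 0 were called in MM versus CC. Neither was called in Cy5 alone, at 0.0074 and -0.25, and their reference signals differed between slides by -0.25 and 0.41. Ahr was at 0.35 and 0.21 without a call. Of 10 genes of bile acid synthesis and conjugation, Amacr, a racemase of the side-chain pathway, was lower in both comparisons (-0.5 and -0.42), with Cy5 alone at 0.027 and 0.0053 and a reference shift of 0.47. Hsd3b7 was higher in M versus C only by the ratio, at 0.42 (adjusted p = 0.0279), with Cy5 at 0.16. Akr1d1 was at 0.42 and 0.3 without a call.

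Of 8 tested liver X receptor targets, among them Abcg5, Abca1 and Abcg1, 1 was higher and 1 lower in each mixture comparison. Abcg5 was the one that fell, and the phospholipid-remodelling enzyme Lpcat3 was higher by 0.57 and 0.49 in the ratio, with Cy5 at 0.039 and -0.004 and a reference shift of -0.52. Lpl, lipoprotein lipase, was at 0.59 and 0.44 without a call, with Cy5 alone at 0.12 and -0.012 and a reference shift of -0.46. Of 9 tested genes of sterol uptake and trafficking, 2 were higher in each comparison and 0 were lower. They were the lipoprotein receptor Lrp1 (0.89 and 1.12) and the oxysterol-binding Osbpl1a (0.41 and 0.51), with Cy5 alone at -0.29 and 0.029 for Lrp1 and at -0.059 and -0.017 for Osbpl1a. Their reference signals were lower on slide 2 by 1.14 and 0.5, and Stard3 was at -0.23 and -0.17 without a call. Among these lists the calls shared by the ratio and Cy5 alone were thus Abcg5 and Abcg2, beside the sentinels of induction.

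The genes most like each transporter across arrays were taken as the 3 with the highest Pearson r over 16 arrays after subtraction of each slide's mean, a measure that array row, pool and reference also enter. For Slco1a4 they were Mff (0.955), Selenop (0.955) and Wdr45 (0.952), and for Slco1b2 Ergic3 (0.934), Ppp6r1 (0.931) and Psap (0.929). For Abcb4 they were Mtfp1 (0.897), Gsta6 (0.868) and Sult1c3 (0.846), and for Slc10a1 Bhmt2 (0.839), Glyctk (0.833) and Gpr107 (0.827). Those of Abcg5 were Vamp3 (0.823), Car7 (0.816) and Psmb6 (0.802), and those of Abcc2 were Spint2 (0.785), Sulf2 (0.779) and Thpol1 (0.773). Those of Abcc3 were Lgals2 (0.776), Rpain (0.771) and Scrn2 (0.761). No transporter was among the 3 genes closest to another. Between transporters the highest value was 0.646, for Slc10a1 with Abcb4, and Abcc2 with Abcc3 gave 0.167.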

How the data were processed

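Livers of 16 pools of pups were measured on 16 dual-colour Agilent arrays. Per the file headers, the authors scanned them with Agilent Feature Extraction 11.0.1.1 on an array design of build rn4, and the deposited files give median intensity per spot and local background in both channels. The deposited files also give a log10 ratio of Cy5 over Cy3, made by the authors' scanner software, per the file headers. The background and dye correction behind it are not given in the sources used here. The authors' deposited series table holds log2 ratios for 30367 probes, with array medians of -0.0487 to -0.0371. Its normalization and centring are not given in the sources used here. Its correlation with the ratios computed here was 0.996 to 0.997 per array.

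Intensities were background-corrected by normexp (offset 50), outlier spots were left out, and ratios were normalized within arrays by loess with control spots at weight 0. Channels were made comparable with Aquantile, which leaves ratios as they are. Probes were kept if the Cy5 signal exceeded background clearly on 3 or more of the 4 arrays of any group (13262 of 30367). RefSeq identifiers named 18005 probes, through a GRCr8 table used for names and neighbours. The brightest probe stood for each gene. A mean per group was fitted with limma 3.58.1 in R 4.3.3 (eBayes, two-sided, Benjamini-Hochberg over 12072 genes). The pipeline was tested on simulated data. Figures used Python 3.11.15 and matplotlib 3.10.9. The number of arrays limits the precision. CC and MM share replicate numbers, and the block on them is an alternative.

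The members, gene lists and rule for named genes (all members, up to 3 genes of each related list by p in M against C, and the 3 genes most like each member) were chosen with earlier results of these data known. A gene that this rule names in a related list is not reported here.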

Additional observations from a re-analysis of the deposited data

Results flagged for a closer look

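In 5 of the 32 sets of 4 arrays checked (the 8 tested transporters in 4 groups), 1 array lay far from the other 3 by Dixon's criterion, which chance meets in about 1 of 20 sets. Abcb11, the bile salt export pump, was at 6.25 on C 12, where the other C arrays lay at 3.98 to 4.2, and at 6.28 on MM 2, where the others lay at 3.45 to 3.84. Abcg5, a subunit of the sterol pump, was at 3.69 on M 5 against 4.65 to 4.77, and without M 5, as without C 10 or C 12, Abcg5 was not called in M against C. On CC 1, the uptake carrier Slco1a4 was at 3.91 against 4.49 to 4.6, and the phospholipid floppase Abcb4 at 2.2 against 2.46 to 2.5. CC 1 was also an array with high muscle and pancreas marker signals, and the part of these in the values was not tested.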

How the results depend on the processing

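Abcc3, which passed the filter only through M and MM, is left out of what follows on single rows and arrays. In M against C neither Abcc2 nor Abcg5 passed with array row 1 only (837 of all 12072 genes called) or row 2 only (705). With 1 array left out, Abcc2 passed in 3 of 8 fits and Abcg5 in 5 of 8. Neither passed without C 10, where 1918 of all genes were called. In MM against CC neither passed with row 1 only (591 of all genes), and Abcg5 alone passed with row 2 only (1210). With 1 array left out, Abcc2 passed in 8 of 8 fits and Abcg5 in 7 of 8, the exception being the fit without CC 1 (2214 of all genes). Fewer arrays enter these fits. Slco1b2 in M against C reversed with the scanner software's log ratio, to -1.48. The counts in CC against C, MM against M and the interaction stayed at 0 transporters under every alternative run. Over all genes, calls in M against C ranged from 393 (Cy5 alone) and 705 (row 2 only) and 837 (row 1 only) to 4358 (scanner software's log ratio), against 2459. In MM against CC they ranged from 345, 591 (row 1 only) and 1210 (row 2 only) to 4295, with 1465 without CC 1 and CC 2 and 1547 with only the groups compared, against 2419. The share of M against C calls that were higher moved from 40.2% to 65.6% in Cy5 alone, and to 48.3% in the deposited series table. With CC and MM arrays of the same number as a replicate block, Abcc2 and Abcg5 were called in MM against CC, among 2000 of all 12072 genes. Same-numbered arrays correlated at 0.339, 0.0575, 0.186 and 0.107, and not every array correlated best with its own number. Beside the number they shared the array row, so the replicate block also takes in the row. Aquantile scaling leaves ratios unchanged by construction, so scaling and quantile normalization of ratios were added after the data were seen, as were the fits without C 12 and MM 2 and without CC 1 and CC 2. Signal over background limits Abcc3, Abcg8 and Abcb1a in Cy5, and Abcb11, Abcg5, Slc10a1 and Slco1b2 in Cy3.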
